A study of Arabidopsis thaliana with 6 samples.

Results

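The CLAVATA genes described here are 8 loci of *Arabidopsis thaliana*, chosen by name from 27444 protein-coding genes on the 5 nuclear chromosomes. They are the peptide gene CLV3 (AT2G27250) and 7 receptor genes, CLV1 (AT1G75820), CLV2 (AT1G65380), CRN (AT5G13290), BAM1 (AT5G65700), BAM2 (AT3G49670), BAM3 (AT4G20270) and RPK2 (AT3G02130). The choice was by name and used no measured value, but it was made with earlier results of these data known. All 8 were found in the gene table. Every sample came from young leaves of the accession Columbia-0 (labelled Col0), grown on soil with 8 h of light and 16 h of dark at 22.5 °C. The labels name no mutation and no treatment. The series held 2 chromatin immunoprecipitation (ChIP) samples for histone H3 trimethylated at lysine 4 (H3K4me3), 2 for H3 trimethylated at lysine 27 (H3K27me3), 1 input DNA sample and 1 mRNA sample.

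CLV3 is made by the stem cells of the shoot meristem and is cut to a short secreted peptide of the CLE family. CLV1, a receptor kinase with leucine-rich repeats (LRR), binds it and restrains WUS, the homeobox gene that keeps stem cells and in turn promotes CLV3. CLV2 is an LRR receptor-like protein without a kinase and works with CRN, a membrane protein with a kinase-like domain and no LRR. BAM1, BAM2 and BAM3 are the closest relatives of CLV1 and also act outside the meristem, in leaf and vascular development, and BAM3 perceives CLE45 in root phloem. RPK2 is a further LRR receptor kinase of the pathway. H3K27me3 is set by Polycomb Repressive Complex 2 at silenced developmental genes, and H3K4me3 is found at transcribed genes.

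Each mark has a single list of enriched domains and each gene a single mRNA value, so no value below has a replicate error and no test between genes was possible. The H3K4me3 list had 19276 domains with a median width of 750 bases, and the H3K27me3 list had 15863 with a median of 900. Their read depth is unknown. The mRNA table listed 20764 loci with their mean read depth over exons, from 1.00 to 22244 with a median of 6.74. Library size and sampling error are unknown for it too. The leaf mesophyll genes RCA, LHCA3, GLDP1 and CA1 had depths from 538.4 to 6006. None of 6 shoot meristem genes (STM, WUS, KNAT1, CUC1, CUC2, LFY) and none of 3 root genes (RHD6, WOX5, RSL4) was listed, and of 3 flower genes AG was listed, at 1.41. The tissue is a mixture of cells, in which fewer cells of a type and less RNA per cell cannot be told apart, and a mark in some cells cannot be told apart from a weaker mark in all.

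The peptide gene differed from most of its receptor genes in its marks. A gene was taken to carry a mark where domains lay on at least 150 bases of its body. CLV3 carried H3K27me3 alone and had no mRNA depth. Of the 7 receptor genes, 6 carried H3K4me3, 3 carried H3K27me3 and all 7 had mRNA. In all, 6 of the 8 genes had H3K4me3, against 64.4% of all protein-coding genes, and 4 had H3K27me3, against 31.0%. By class, CLV1, CLV2, CRN and RPK2 had H3K4me3 alone (54.2% of all genes), BAM1 and BAM2 had both marks (10.1%), CLV3 and BAM3 had H3K27me3 alone (20.8%), and no member was without a mark (14.8%). The receptor genes had bodies of 2537 to 4233 bases, against a median of 2078 over all genes. Among genes in that length range, 80.6% had H3K4me3, 22.6% H3K27me3 and 10.1% both. The receptors' counts for H3K4me3 were therefore close to those of genes of their size.

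**Figure D1:**
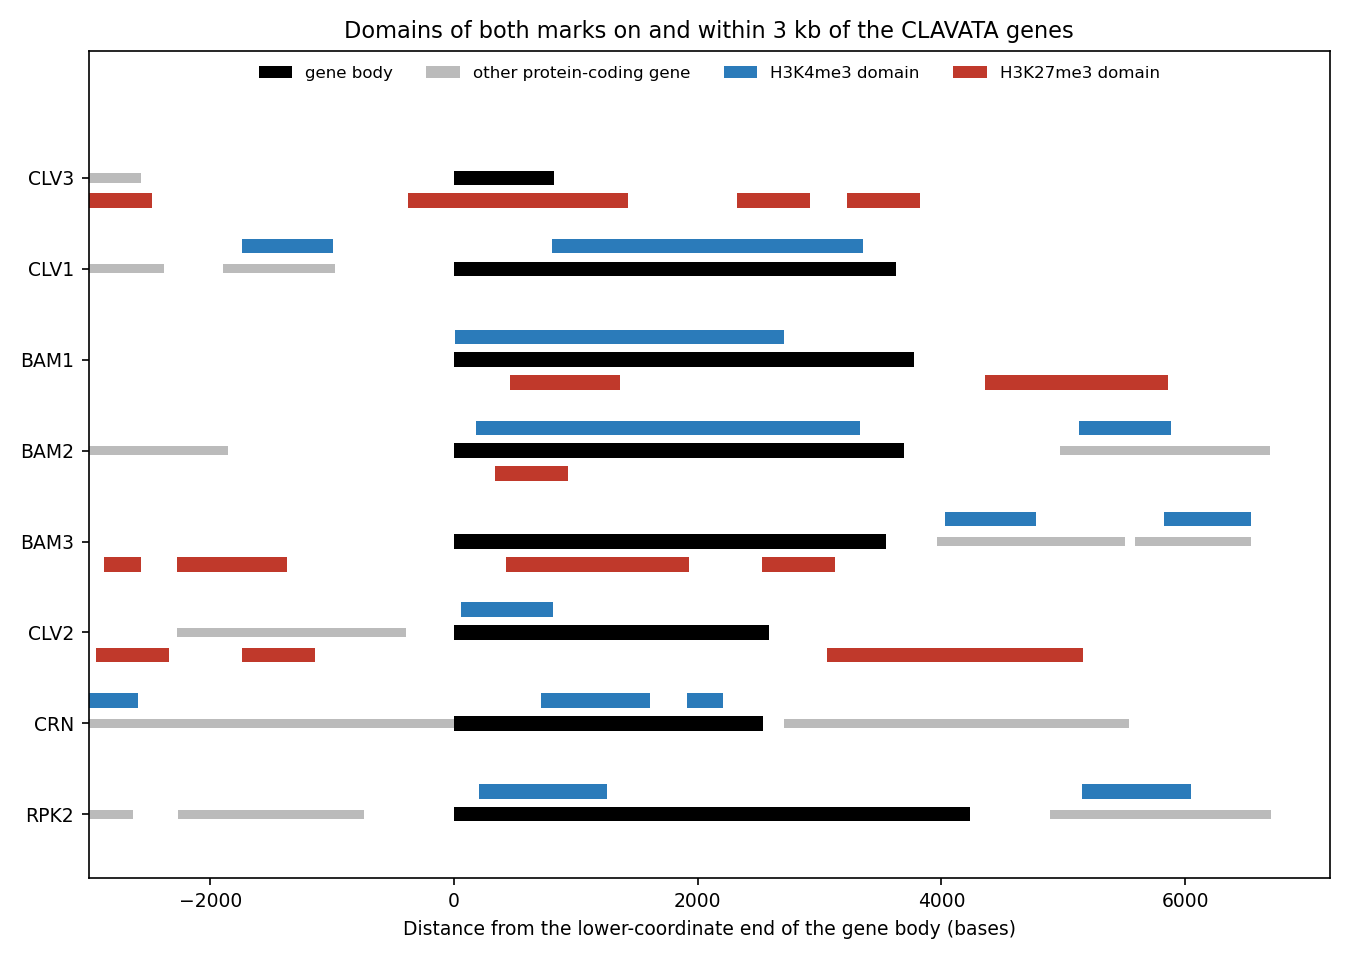
Each row shows 1 CLAVATA gene, with its body in black, other protein-coding genes in grey, H3K4me3 domains in blue above and H3K27me3 domains in red below. The x axis is the distance in bases from the end of the body with the lower coordinate. CLV3 lies inside a single H3K27me3 domain, CLV1, BAM1 and BAM2 lie largely under 1 wide H3K4me3 domain each, and BAM3 has 2 H3K27me3 domains and no H3K4me3.

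CLV3 lay wholly under H3K27me3. Its 820-base body was inside a domain of 1800 bases on chromosome 2 (11664601 to 11666400, TAIR10), whose score ranked at percentile 84.1 of the H3K27me3 list. No H3K4me3 domain touched the gene, and the nearest ended 13877 bases away on one side and began 3903 bases away on the other. The latter lay on the neighbouring gene AT2G27260, which had H3K4me3 alone and a depth of 13.0. On the other side AT2G27240 had H3K27me3 alone and was not listed. Full cover by H3K27me3 was found on 5.89% of all protein-coding genes and on 16.9% of the genes with bodies of at most 1000 bases. Of the 1617 fully covered genes, 15.3% were listed in the mRNA table. CLV3 was among the unlisted majority of them.

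CLV1 and its relatives BAM1 and BAM2 carried wide H3K4me3. On CLV1 the domain was 2550 bases wide (chromosome 1, 28464151 to 28466700, TAIR10) and covered 70.3% of the body. On BAM1 it was 2700 bases wide (chromosome 5, 26281651 to 26284350) and covered 71.6%. On BAM2 it reached 3150 bases (chromosome 3, 18417751 to 18420900) and covered 85.2%. In the whole H3K4me3 list 39 domains were wider than that of CLV1, 24 were wider than that of BAM1 and 8 were wider than that of BAM2. By the authors' score these domains ranked 136th, 33rd and 15th, although the score rises with width. Per base of width their scores were at percentiles 76.8, 90.1 and 90.7 of the list, which holds domains of all widths. Whether they were dense for domains of their own width was not tested.

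RPK2, CLV2 and CRN had H3K4me3 domains of ordinary width. RPK2 had 1 domain of 1050 bases (chromosome 3, 380551 to 381600), which covered 24.8% of the gene, and its score per base was at percentile 96.9. CLV2 had 1 domain of 750 bases (chromosome 1, 24286801 to 24287550) on 29.0% of its body, with a score per base at percentile 88.4. On RPK2 the domain ended at 29.6% and on CLV2 at 31.3% of the body, counted from the end with the lower coordinate. CRN had 2 weaker domains, of 900 bases (chromosome 5, 4253551 to 4254450) and 300 bases (4254751 to 4255050). Their scores were at percentiles 33.1 and 4.82, the lowest among the receptor genes, and together they covered 47.3% of the body. The body of CRN overlaps AK-LYS1 by 423 bases and contains AT5G13295, which was not listed and lay wholly under the larger domain of CRN. Neither domain reached AK-LYS1. Which gene the larger domain belongs to cannot be told apart.

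**Figure D2:**
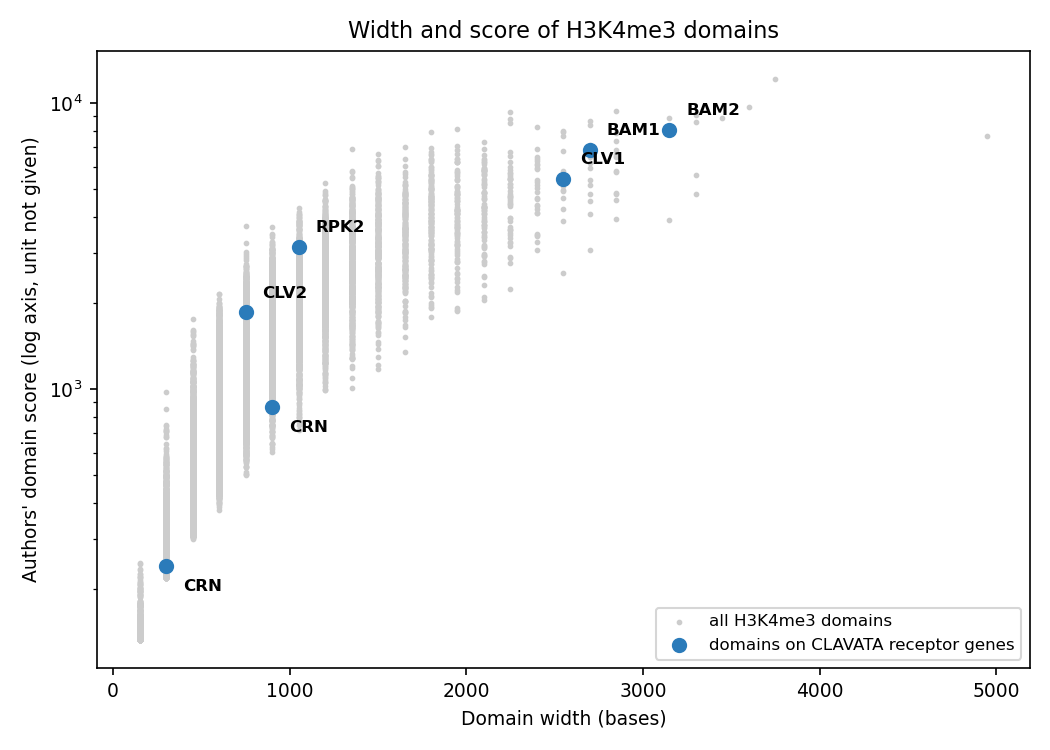
Width in bases (x axis) and the authors' score (y axis, log scale, unit not given) of all 19276 H3K4me3 domains in grey, with the 7 domains on CLAVATA receptor genes in blue. BAM2, BAM1 and CLV1 lie at the wide, high-scoring end, and the domains of CRN have scores at percentiles 33.1 and 4.82 of the list.

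H3K27me3 on the receptor genes took other forms than on CLV3. BAM1 had a domain of 900 bases (chromosome 5, 26282101 to 26283000) on 23.9% of the body, with a score at percentile 42.7. BAM2 had a domain of 600 bases (chromosome 3, 18417901 to 18418500) on 16.2% of the body, with a score at percentile 21.3. Of the BAM2 domain, 585 bases also lay on AT3G49668, a long non-coding RNA gene inside BAM2, and to which of these genes the mark belongs cannot be told apart. Both domains lay wholly inside the wide H3K4me3 domain of the gene. That arrangement was found for 6.32% of all H3K27me3 domains. Per base of width the scores were at percentiles 8.66 and 6.86 of the list, near its lower end. Neither domain is kept when only domains at or above the median score are used, and BAM1 and BAM2 then had H3K4me3 alone.

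BAM3 was the only receptor gene of the 7 without H3K4me3. Its H3K27me3 came in 2 domains, of 1500 bases (chromosome 4, 10950001 to 10951500) and 600 bases (10952101 to 10952700), which together covered 59.3% of the body. The scores were at percentiles 60.9 and 34.8. The wider domain was thin, with a score per base at percentile 3.91, while the narrower one was at percentile 41.3. That of the CLV3 domain was at percentile 79.2. An H3K4me3 domain began 487 bases beyond the body, on the neighbouring gene TAF11, which had H3K4me3 alone and a depth of 10.2. The body of CLV2 also lay close to the other mark. An H3K27me3 domain of 2100 bases began 471 bases beyond it and another ended 1141 bases before it, and none touched it. With 1000 bases added on each side of the body, CLV2 and BAM3 counted as carrying both marks.

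**Figure D3:**
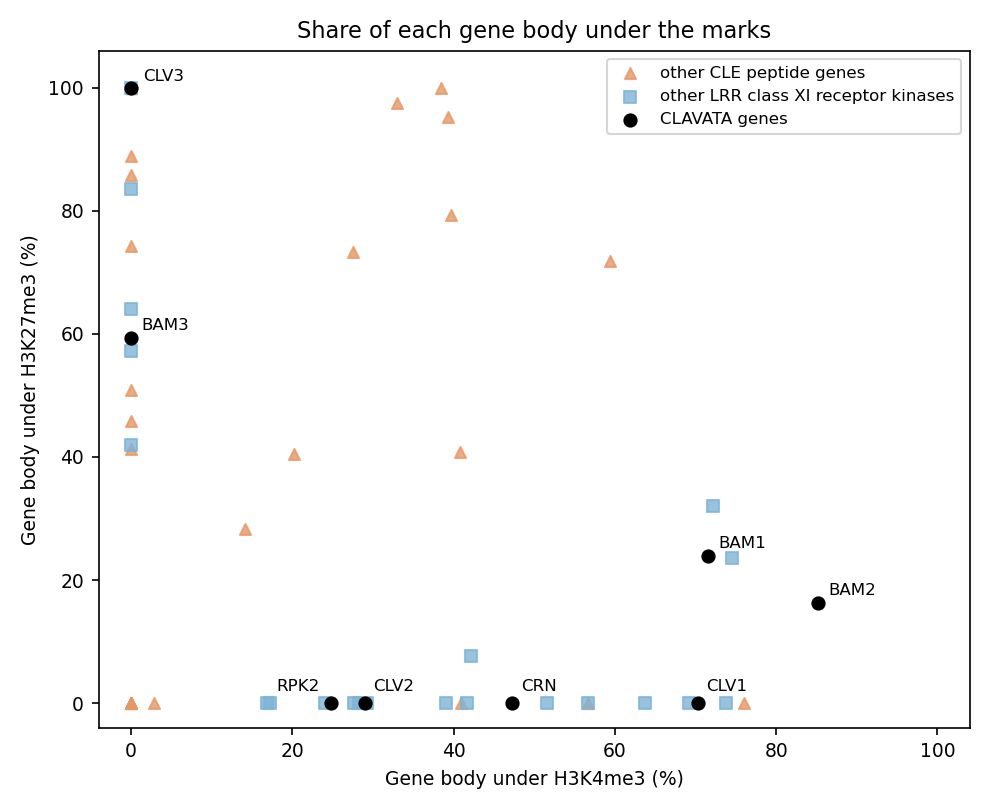
Share of each gene body under H3K4me3 (x axis, %) and under H3K27me3 (y axis, %) for the 8 CLAVATA genes in black, 31 other CLE peptide genes as triangles and 21 other LRR class XI receptor kinases as squares, some of which coincide. CLV3 is at 100% H3K27me3 and no H3K4me3, BAM3 on the same axis at 59.3%, and BAM2 is farthest to the right at 85.2% H3K4me3.

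mRNA depth set the receptor genes in an order with CLV1, BAM1 and BAM2 on top. BAM2 had a depth of 31.4, BAM1 of 21.4 and CLV1 of 15.4, at percentiles 86.6, 80.4 and 73.5 of the listed loci. RPK2 followed at 9.54 (percentile 60.4) and BAM3 at 6.88 (percentile 50.6). The partners CRN and CLV2 were lowest, at 4.80 and 3.86 (percentiles 40.7 and 35.1). CLV3 was not listed, which says only that no depth was given for it. Each step between neighbours in this order was at most 1.61-fold, and with 1 library it is unknown whether any step exceeds sampling error. From CLV2 to BAM2 the depth rose 8.12-fold. Listing itself sets the receptors little apart, since 72.9% of all protein-coding genes, and 88.8% of those in the receptors' length range, were listed.

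Reads of overlapping genes cannot be separated, which touches 2 of these values. The non-coding AT3G49668 inside BAM2 had a depth of 33.6, close to the 31.4 of BAM2. CRN at 4.80 overlaps AK-LYS1, which had a depth of 13.3. The other 5 listed members overlap no annotated gene.

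**Figure D4:**
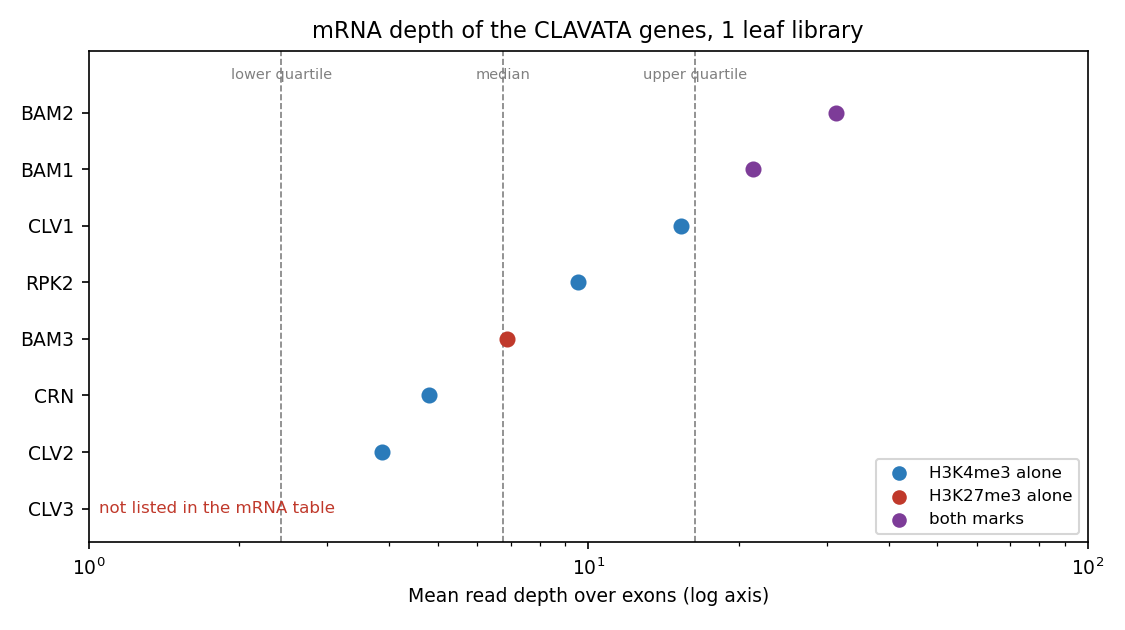
Mean read depth over exons in the 1 leaf mRNA library (x axis, log scale) for the 8 CLAVATA genes, coloured by mark class, with dashed lines at the quartiles and the median of all listed loci. BAM2 and BAM1 lie above the upper quartile of 16.3, CLV2 and CRN lie below the median of 6.74, and CLV3 was not listed.

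Among the 6 receptor genes with H3K4me3, the order of depth was also that of the widest H3K4me3 domain. These domains had 3150 bases on BAM2, 2700 on BAM1, 2550 on CLV1, 1050 on RPK2, 900 on CRN and 750 on CLV2. By all bases of the body under H3K4me3 the order differed, since RPK2 was deeper than CRN with 1050 against 1200. BAM3, without H3K4me3, was deeper than CRN and CLV2. No relation of depth to width was tested. Set beside genes of the same mark class, CLV1 at 15.4 was above the median of 8.93 for genes with H3K4me3 alone, and RPK2 at 9.54 was near it. CRN and CLV2 were below it, at percentiles 29.0 and 22.8 of that class. BAM1 and BAM2 were at percentiles 84.0 and 88.2 of the genes with both marks, which had a median depth of 2.36 when unlisted genes are set to 0. Of those genes 16.0% reached the depth of BAM1.

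BAM3 was read more deeply than most genes with H3K27me3 alone. Of the 5714 genes in that class 26.0% were listed, with a median depth of 1.33 among those listed, and 2.38% reached the 6.88 of BAM3. CLV3 belonged to the unlisted majority of the same class. The leaf contains phloem, and the 4 phloem marker genes fixed for this check were all listed, from 1.49 (CalS7) to 111.9 (SUC2). All 4 carried H3K27me3, and 1 of them, the phloem regulator APL, had it alone, on its whole body, at a depth of 11.7. Many markers of other leaf cell types were also listed and carried H3K27me3. All 3 epidermis markers (depths 14.4 to 32.6) and all 4 guard cell lineage markers (1.92 to 7.56) were listed, and H3K27me3 lay on 3 of 3 and 3 of 4 of them. The 4 leaf mesophyll markers were all listed, and 2 of them carried H3K27me3, together with H3K4me3. Of all protein-coding genes, 31.0% carried H3K27me3 and 72.9% were listed. The part of phloem cells, or of any other cell type, in the BAM3 values was not tested.

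The other CLE peptide genes were mostly under H3K27me3 as well. Of 31, 21 carried it (67.7%), 12 of them alone and 9 with H3K4me3, 3 had H3K4me3 alone and 7 had neither mark. Of the 31, 17 were listed, and the median depth was 1.17 with unlisted genes set to 0, against 3.41 over all protein-coding genes. The genes are short, with a median body of 829 bases, and 41.7% of all genes with bodies of at most 1000 bases carried H3K27me3 while 32.5% were listed. The deepest were CLE41 at 23.5, with both marks, and CLE16 at 13.9, with H3K4me3 alone. CLE20 (5.92) and CLE43 (11.0) were the other genes with H3K4me3 alone. CLE16, CLE20 and CLE45 overlap another annotated gene. CLE45, the ligand of BAM3, had a depth of 1.57 and neither mark by the 150-base rule. CLE40, which acts through CLV1 and ACR4 in the root, had neither mark and was not listed.

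Likeness was measured as the distance over 3 values per gene, the shares of the body under each mark and the percentile of depth, each from 0 to 1. By this measure 5 CLE genes had the same 3 values as CLV3, at a distance of 0. Unlisted genes were set to 0, so any unlisted gene wholly under H3K27me3 and without H3K4me3 is at this distance. Of all protein-coding genes 5.89% were wholly under H3K27me3, and 15.3% of those were listed, so this match is not particular to CLE genes. The 5 CLE genes were CLE4, CLE5, CLE6, CLE7 and AT5G59305, all wholly under H3K27me3 and unlisted. CLE4 to CLE7 are neighbouring loci on chromosome 2, and whether their marks are independent was not tested. Among other LRR class XI kinases, the nearest to CLV1 was RLK7, at 0.0302. HSL1 was nearest to BAM1, at 0.0824, and AT4G26540 to BAM2, at 0.205. CEPR1 was nearest to BAM3, at 0.360, so BAM3 had no close match there.

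CLV1 and the BAM genes belong to LRR class XI, a family of receptor kinases most of which bind small peptides. Of the 21 other members examined, 13 had H3K4me3 alone, 5 H3K27me3 alone and 3 both marks, and 19 were listed. Their median depth was 5.09 with unlisted genes set to 0, and CLV1, BAM1, BAM2 and BAM3 were all above it. Wide H3K4me3 was shared with some of them. At least 2500 bases of the body, a limit chosen after the values were seen, were under H3K4me3 on 73 protein-coding genes, 0.266% of all and 0.571% of those in the receptors' length range. CLV1, BAM1 and BAM2 were among these 73, and so were HSL1, RLK7, AT4G26540, AT5G56040 and AT4G08850. Together they make 8 of 25 class XI genes (32.0%) and 11.0% of the 73. No test of this overlap was made, because the members were chosen with earlier results known. The limit was also reached outside the family, by the leaf mesophyll genes RCA (2700 bases), GLDP1 (3600 bases) and CA1 (2550 bases).

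Genes of this family under H3K27me3 alone had depths across the whole range. IKU2, which controls seed size, had the highest depth of the 21, at 47.2, with 41.9% of its body under H3K27me3, but it overlaps AT3G19710. CEPR1, a receptor of C-terminally encoded peptides, had 18.0 with 83.6% covered. SKM1 had 2.19 with its whole body covered. AT5G48940 was listed at 1.00 and AT3G24240 was not listed. BAM3 at 6.88, with 59.3% covered, lay between SKM1 and CEPR1. After IKU2 the deepest of the 21 was CEPR2, at 34.6, with H3K4me3 alone, and it too overlaps another gene.

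**Figure D5:**
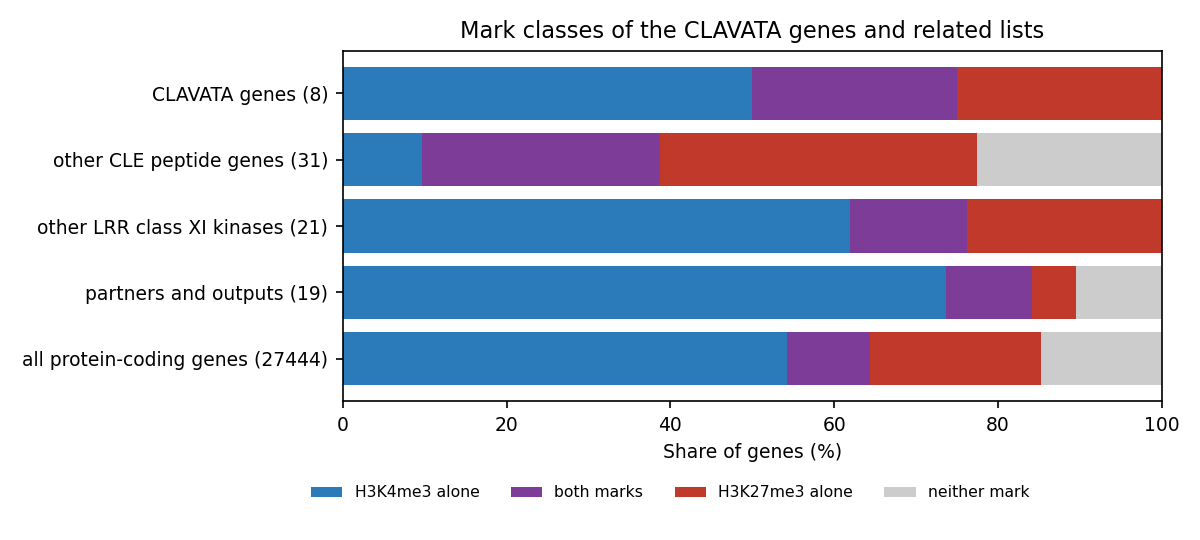
Share of genes (x axis, %) in each mark class for the 8 CLAVATA genes, 31 other CLE peptide genes, 21 other LRR class XI kinases, 19 partners and outputs of the pathway and all 27444 protein-coding genes. Of the CLE genes 12 have H3K27me3 alone, while 13 of the class XI kinases and 14 of the partners have H3K4me3 alone.

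Most partners and outputs of the pathway had H3K4me3 alone, while WUS and STM lay almost wholly under H3K27me3. Of 19 genes, 14 had H3K4me3 alone (54.2% of all protein-coding genes), 2 both marks, 1 H3K27me3 alone and 2 neither mark, and 17 were listed. With or without H3K27me3, 16 had H3K4me3, a share near the 80.6% of genes in the length range of the receptors. The 19 bodies had a wider range, from 1669 to 6583 bases, and 64.4% of all protein-coding genes had H3K4me3. The deepest was SHD, a chaperone needed for CLAVATA signalling, at 76.2, followed by NIK3 at 31.9, a receptor kinase of the co-receptor group that acts with CLV1. The phosphatase genes POL and PLL1, which act downstream of CLV1, had H3K4me3 alone with depths of 5.18 and 1.57. HAM1 and HAM2, transcriptional partners of WUS, also had H3K4me3 alone, with depths of 12.6 and 13.3. The genes with H3K27me3 were WUS, STM and ULT1. WUS had both marks, with 99.4% of its body under H3K27me3 and 450 bases of H3K4me3, and was not listed. STM, which keeps meristem cells undifferentiated, had H3K27me3 alone on 99.5% of its body and was not listed. ULT1, which limits meristem size, had both marks and a depth of 1.66. CLV3 therefore shared its state with STM and, but for the H3K4me3, with WUS. AT2G23950 and AT5G45780 had neither mark and depths of 5.58 and 1.63.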

How the data were processed

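Groups were taken from the sample titles. ChIP and input libraries were made from 20 ng of DNA and the mRNA library from 1 ug of total RNA, per the labels' protocols. The submitters' processing notes list Bowtie, SICER and the build TAIR10 with no version. Whether replicates were pooled and how the input was used for calling domains is not stated there. The authors deposited 1 score per domain, of unstated unit, used here only to rank or filter domains within a list. Starts were raised by 1 to be 1-based, and ends were taken as the last base, raised by 1 too. H3K4me3 widths came in steps of 150 bases and H3K27me3 widths in steps of 300. The authors deposited mRNA as a coverage signal per locus, at exactly 1 for 7.66% of loci, with no scaling stated. Unlisted genes were set to 0 where a median says so.

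Gene bodies and names came from the RefSeq table of TAIR10.1, which gives no strand. In 8 windows of 5 Mb, 1 around each member, H3K4me3 domains lay most on gene bodies at a shift of 0 in all 8, when moved by up to 10 kb, 50 bases at a time. Percentiles are midranks. The 104 different loci of all lists were found in the table. No test was run. Overlaps were computed with Python 3.11.15, pandas 2.3.3 and numpy 2.4.6, and the overlap code was tested on simulated data. The members and lists were chosen with earlier results of these data known. All 8 members are named. In each related list the 2 deepest genes and up to 6 genes outside the commonest mark class were to be named. The other genes named, including POL, PLL1, HAM1, HAM2, CLE40 and CLE45, were chosen after their values were seen. No sequences are shown.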

Additional observations from a re-analysis of the deposited data

How the results depend on the processing

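No paired analysis was possible because each mark has 1 domain list for both ChIP samples and mRNA has 1 sample, and for the same reason no replicate could be left out. Any overlap of at least 1 base changed no member. With at least 50% of the body, 3 members had H3K4me3 (15.5% of all genes), 2 had H3K27me3 (22.1% of all genes) and 0 had both. With only the domains scoring at least the median of their list, 5 had H3K4me3 (36.0% of all genes), 2 had H3K27me3 (21.6%) and 0 had both. With 1000 bases added on each side, 7 had H3K4me3 (73.6%), 5 had H3K27me3 (43.9%) and 4 had both. CLV3 and CLV1 kept their mark class under all 4 of these settings, and BAM3 under all but the added bases. The median depth of the receptors was 9.54, and 12.5 without CRN. Their median percentile was 60.4 among listed loci and 70.7 among all protein-coding genes. CLV3 minus the receptors' median was -3.40 in log2(depth + 1) and -6.59 with a pseudocount of 0.1, a size that the pseudocount sets because CLV3 was not listed. Among listed genes only, it could not be computed. The background in the receptors' length range was added after seeing the data. Domain limits move in steps of 150 or 300 bases, so small shares are coarse.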

Other observations

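The TDIF peptide genes and their receptor gene shared a mark class, unlike CLV3 and CLV1. PXY, the receptor of the TDIF peptide that keeps vascular stem cells, had both marks, with 42.2% of its body under H3K4me3 and 7.68% under H3K27me3, and a depth of 6.02. The peptide is encoded by CLE41 and CLE44, which also had both marks, with depths of 23.5 and 8.62, so that in this pair the peptide genes were read more deeply than the receptor gene. CLE44 overlaps another annotated gene. The shared class rests on a small H3K27me3 domain of PXY, of 300 bases, with no base of the gene under both marks. On CLE41 H3K27me3 covered the whole body, and 450 bases of CLE41 and 600 bases of CLE44 lay under both marks. The danger-peptide receptors PEPR1 and PEPR2 had H3K4me3 alone, with depths of 5.74 and 1.30, and PEPR2 overlaps other annotated genes. GSO1, a receptor of embryonic cuticle and root barrier formation, had H3K4me3 alone with a depth of 2.46, and its relative GSO2 had H3K4me3 alone and was not listed. GSO1 overlaps another annotated gene. These are values of 1 library, and no difference among them was tested.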
